A study of Mus musculus with 4 samples.

Results

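Mt1 and Mt2 encode metallothionein 1 and metallothionein 2 and were chosen by name, with their pattern in these data already known, as 2 of the 17252 genes in a table of single-cell counts. The table came from Drop-seq, in which droplets pair single cells with beads whose primers mark every RNA molecule by its cell and by a tag of its own (UMI). BALB/c mice had received 10000 BCL1 cells, a B cell lymphoma line of that strain, and their Liberase-digested spleens were taken on day 13. There were 4 libraries, 1 for each treatment: anti-CD20 and anti-CD27 together (combination), anti-CD27 alone, anti-CD20 alone and isotype control. The labels put the anti-CD20 injection at day 4 and the anti-CD27 injections at days 5 to 8, whereas the single-cell methods name other days. All 4 groups carried the lymphoma, and the sources used here do not say how many mice each library drew on. The cells used as isotype control carry the prefix PBS in the deposited table.

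Metallothioneins are small, cysteine-rich proteins that bind zinc and copper, buffer their free levels in the cell and can also react with oxidants. Their genes are classical targets of the zinc sensor MTF-1, which binds metal response elements in the promoter, and are also induced by glucocorticoids, by IL-6 through STAT3 and by oxidative stress. In blood formation, red cell precursors handle large amounts of iron for heme, and metallothionein RNA is also found in activated myeloid cells.

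Mt2 and Mt1 lie side by side on chromosome 8 of the mouse genome. In GENCODE M21 (GRCm38) Mt2 spans chr8:94172664-94173568 and Mt1 chr8:94179082-94180327, both on the plus strand, with 5513 bases between them and 3 exons in the main transcript of each. The 250 bases before the RefSeq start of each RNA are printed because this is where the metal response elements through which zinc acts are sought. The Mt1 sequence is chr8:94178839-94179088 and the Mt2 sequence chr8:94172368-94172617, from RefSeq on GRCm38.p6, read 5′ to 3′ on the plus strand, with matches to the element core, TGCACNC or TGCGCNC on either strand, in capitals.
Mt1: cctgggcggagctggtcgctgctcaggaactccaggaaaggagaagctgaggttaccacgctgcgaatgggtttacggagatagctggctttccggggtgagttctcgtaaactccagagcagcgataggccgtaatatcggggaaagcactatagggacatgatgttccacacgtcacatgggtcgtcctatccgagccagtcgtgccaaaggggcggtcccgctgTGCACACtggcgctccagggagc
Mt2: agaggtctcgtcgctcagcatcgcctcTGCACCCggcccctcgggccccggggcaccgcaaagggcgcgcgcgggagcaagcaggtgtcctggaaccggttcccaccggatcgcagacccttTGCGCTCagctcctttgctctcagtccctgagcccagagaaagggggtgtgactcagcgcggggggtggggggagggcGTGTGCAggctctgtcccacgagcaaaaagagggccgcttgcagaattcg
The Mt1 window held 1 match, at positions -23 to -17 before the RNA start, and the Mt2 window held 3, at -223 to -217, -128 to -122 and, on the minus strand, -50 to -44. Of 32851 RefSeq promoter windows of the same length, 21.4% held at least 1 such match and 1.26% at least 3. The antioxidant response element core TGACNNNGC, sought on both strands, was found once, in the Mt2 window at -79 to -71, and in 10.2% of all windows. These are matches of letters, not measured binding sites. GENCODE also places later starts of other transcripts, at 94179211 and 94179241 for Mt1 and at 94172860 for Mt2. The bases just before those starts lie in an annotated first exon and were neither shown nor searched. The numbers of matches therefore hold for the printed windows only, and not for all promoter bases of either gene.

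The mature RNAs are distinct enough to be counted apart. The longest stretch shared by the Mt1 and Mt2 transcripts was 20 bases, and no stretch of 50 bases, the length of the sequenced reads, was found in the transcripts of another gene for either. Of the other family members, Mt3 had 3 UMIs, all in effector CD8 T-like cells of the anti-CD27 library. No UMI of Mt4, which was also listed, was counted in the kept cells.

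Of 3198 barcodes, the 1770 with 300 to 3000 detected genes were kept, namely 432 combination, 497 anti-CD27, 501 anti-CD20 and 340 isotype control cells. They held 917486, 908930, 939565 and 440710 UMIs in that order, and no kept barcode was found in more than 1 library. With 1 library per treatment there is no replicate and no test. Levels are given as CPM, the UMIs of a gene scaled to a total of 1000000, with exact Poisson 95% intervals, ratios with exact conditional intervals and shares with Clopper-Pearson intervals, all of which cover counting error only. In a whole-library sum, more cells of a type and more RNA per cell cannot be told apart.

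Some barcodes may be copies of one bead. Among the kept barcodes, 63 differed from a deeper barcode of the same library by 1 base or by 1 deleted base, and 11 of these held a metallothionein UMI. They matter most where metallothionein counts are few. The 2 isotype control cells of the erythroid-like class that held metallothionein, with 1 Mt1 and 4 Mt2 UMIs and with 3 and 5, were near-copies of the only 2 isotype control barcodes with over 3000 genes. The single anti-CD20 erythroid-like cell with both genes, at 6 Mt1 and 4 Mt2 UMIs, likewise had a deeper partner, with 17 and 24 UMIs. Values without these barcodes stand beside the results that they move by over 1.5 times or turn.

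Over all kept cells, Mt1 and Mt2 were most abundant in the 2 libraries from mice given anti-CD27. Mt1 had 114 UMIs (124 CPM, interval 102 to 149) in the combination, 80 UMIs (88.0 CPM, 69.8 to 110) with anti-CD27, 24 UMIs (25.5 CPM, 16.4 to 38.0) with anti-CD20 and 10 UMIs (22.7 CPM, 10.9 to 41.7) in the isotype control. Mt2 had 99 UMIs (108 CPM, 87.7 to 131) in the combination, 75 UMIs (82.5 CPM, 64.9 to 103) with anti-CD27, 11 UMIs (11.7 CPM, 5.84 to 20.9) with anti-CD20 and 13 UMIs (29.5 CPM, 15.7 to 50.4) in the isotype control. For both genes the intervals of the combination and anti-CD27 libraries overlapped each other, and those of the anti-CD20 and isotype control libraries did too. Without possible barcode copies, the isotype control kept 6 Mt1 UMIs (13.9 CPM, 5.11 to 30.3) and 4 Mt2 UMIs (9.29 CPM, 2.53 to 23.8). Anti-CD20 then kept 7 Mt2 UMIs (7.55 CPM, 3.03 to 15.6).

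**Figure D1:**
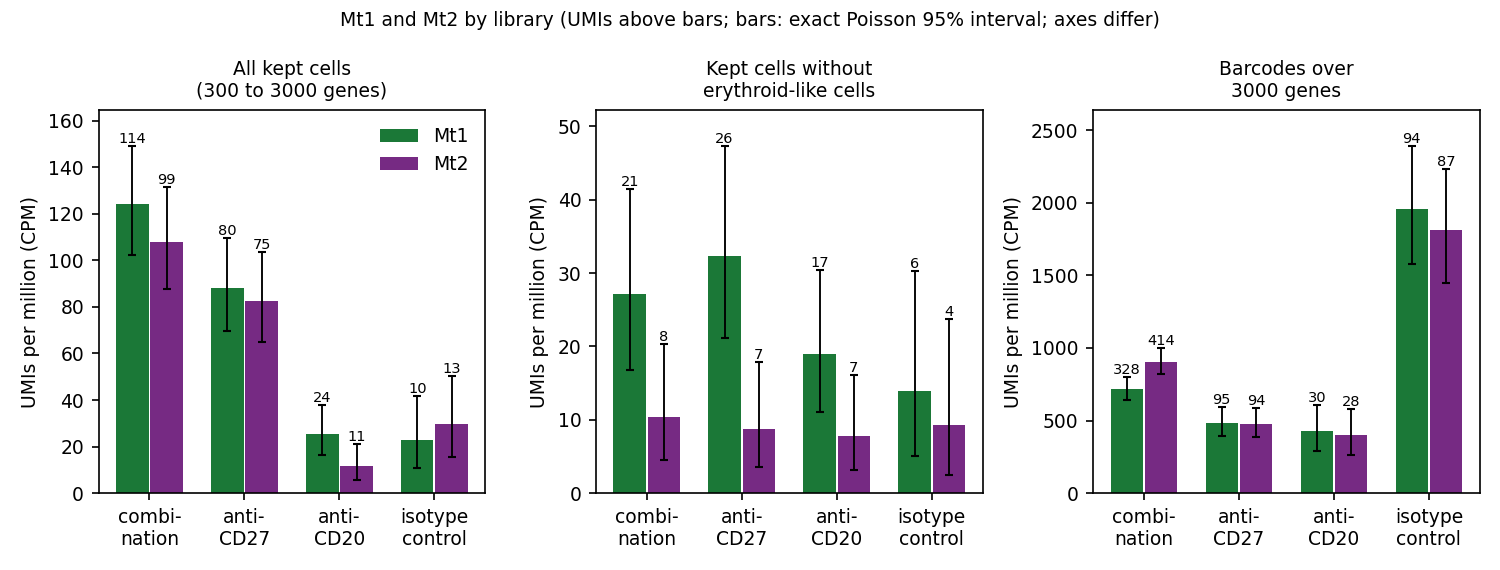
Mt1 (green) and Mt2 (purple) in CPM in each library, for all kept cells (left), kept cells without erythroid-like cells (middle) and barcodes over 3000 genes (right), with exact Poisson 95% intervals and the number of UMIs above each bar. The combination and anti-CD27 bars for Mt1, 124 and 88.0 CPM at left, are lower at middle, 27.2 and 32.3 CPM. There anti-CD20 stands at 19.0 CPM and the isotype control at 13.9 CPM. At right the isotype control, from 2 barcodes, stands highest at 1956 CPM for Mt1.

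The combination over anti-CD20 gave a log2 ratio of 2.28 (1.64 to 2.98) for Mt1 and 3.20 (2.30 to 4.25) for Mt2. Both were at least 2-fold higher with an interval without 1, as were 9.54% of the 10365 genes with at least 10 UMIs, and 8.55% were lower by the same rule. Anti-CD27 over isotype control gave 1.96 (1.002 to 3.07) for Mt1 and 1.48 (0.62 to 2.46) for Mt2, both past the rule beside 6.15% of 9585 genes higher and 6.42% lower. Without possible barcode copies these ratios were 2.44 (1.25 to 3.94) for Mt1 and 3.01 (1.58 to 4.92) for Mt2. With barcodes over 3000 genes counted too, they turned to -0.43 (-0.78 to -0.06) for Mt1 and -0.42 (-0.79 to -0.05) for Mt2, with anti-CD27 at 158 and 153 CPM and the isotype control at 213 and 205 CPM. The combination over anti-CD20 kept its direction in both settings, and for Mt2 it was 3.86 (2.76 to 5.21) without possible copies. Since the genes were chosen with these ratios known, nothing is read from the counts.

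The remaining comparisons were smaller. The combination over anti-CD27 gave 0.50 (0.07 to 0.93) for Mt1 and 0.39 (-0.06 to 0.84) for Mt2, neither at 2-fold, beside 3.75% of genes higher and 3.94% lower. Anti-CD20 over isotype control gave 0.17 (-0.95 to 1.40) for Mt1. Mt2 was lower by this comparison, at -1.33 (-2.63 to -0.06), beside 2.84% of genes higher and 3.32% lower. Without possible barcode copies, 7 Mt2 UMIs remained with anti-CD20 and 4 in the isotype control, the ratio was -0.30 (-2.28 to 1.92), and Mt2 no longer met the rule.

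Metallothionein UMIs were concentrated in few cells. Of the 1770 kept cells, 90 held an Mt1 UMI, 62 an Mt2 UMI, 28 both and 1646 neither. Mt1 was found in 42 of 432 combination cells (9.72%, 7.10 to 12.9%), 27 of 497 anti-CD27 cells (5.43%, 3.61 to 7.81%), 14 of 501 anti-CD20 cells (2.79%, 1.54 to 4.64%) and 7 of 340 isotype control cells (2.06%, 0.83 to 4.20%). Cells with either gene were deeper than those without, with medians of 3175 and 1199 UMIs.

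Clustering of the kept cells without Mt1, Mt2 and the related lists among the variable genes gave 19 clusters, of which 16 were named from marker genes. The erythroid-like class, 111 cells or 6.27% of all (5.19 to 7.50%), held 158 of 228 Mt1 UMIs (69.3%) and 172 of 198 Mt2 UMIs (86.9%). When the cells were clustered anew without called doublets, the Car1-led cells were no longer named erythroid-like, and the class then held 2.20% of Mt1 and 7.61% of Mt2 UMIs. It comprised a cluster of 81 cells led by Car1, a carbonic anhydrase of early red cell precursors, with Gata1, Klf1 and Ermap among its leading genes, and a cluster of 30 cells led by Slc4a1 and haemoglobin genes of later precursors. Mt2 and Mt1 stood at ranks 2 and 3 among the genes of the Car1-led cluster by fold over other cells, although neither was used to form it.

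In the Car1-led cluster Mt1 reached 793 CPM (672 to 929) from 153 UMIs and Mt2 814 CPM (691 to 951) from 157 UMIs. In the haemoglobin-rich cluster Mt1 was at 45.9 CPM (14.9 to 107) from 5 UMIs and Mt2 at 138 CPM (77.1 to 227) from 15 UMIs, although its cells were deeper, at a median of 3377 UMIs against 1325. The intervals of the clusters did not overlap for either gene, but how many other genes differed likewise was not computed. Haemoglobin genes made up 387503 CPM of the haemoglobin-rich cluster, and 1 cell held 36 of the 310 metallothionein UMIs of the Car1-led one. Elsewhere Mt1 was highest in a cluster of 35 macrophage or monocyte-like cells led by Fcna and Cd5l, genes of resident splenic macrophages, at 115 CPM (49.6 to 226).

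**Figure D2:**
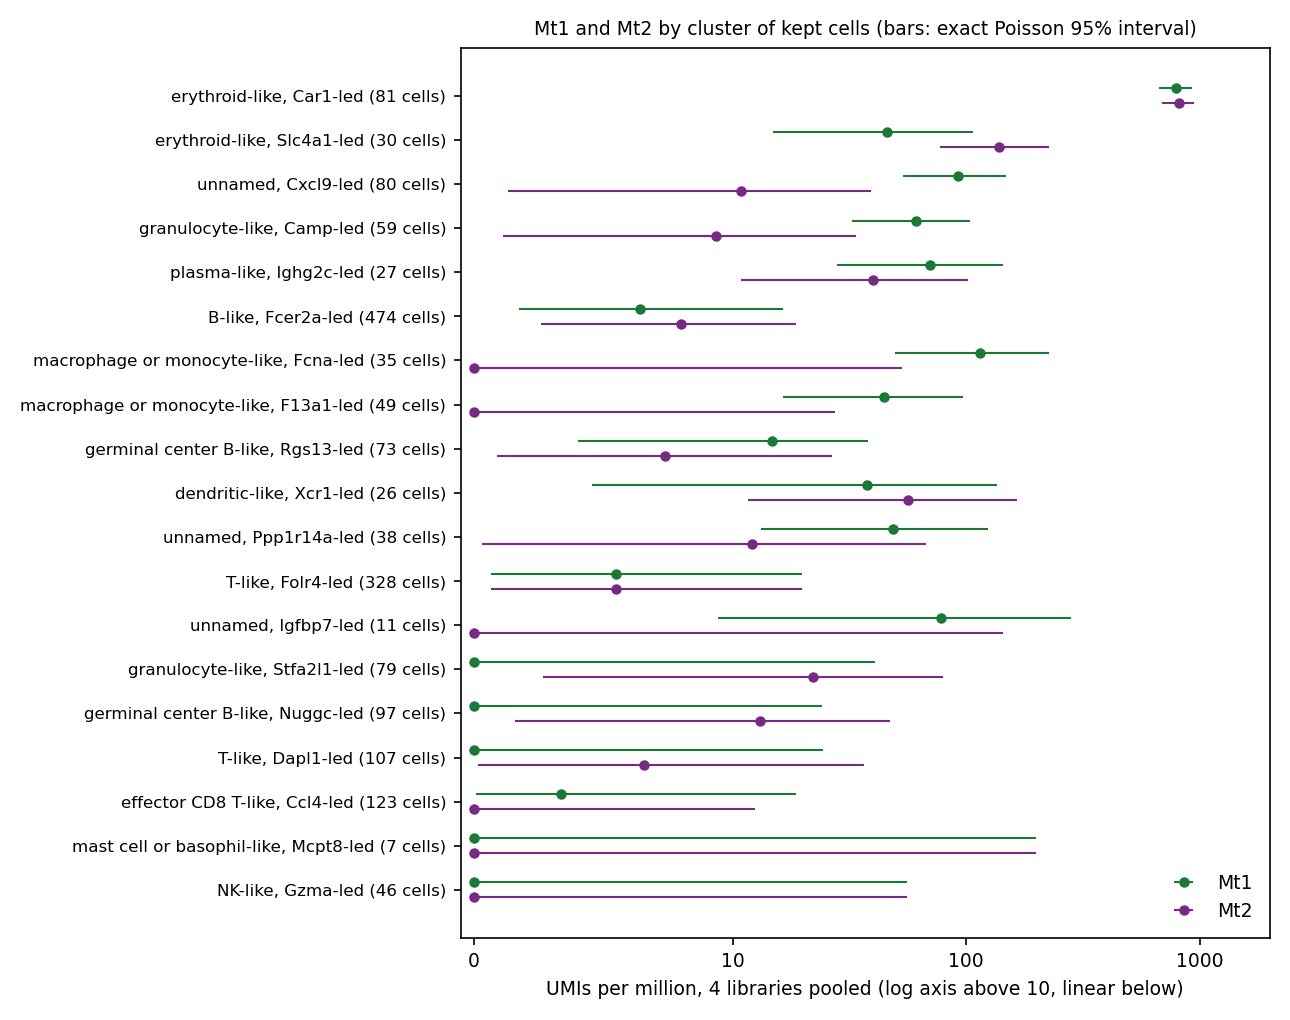
Mt1 (green) and Mt2 (purple) in CPM over the pooled kept cells of each of the 19 clusters, ordered by their metallothionein UMIs, with exact Poisson 95% intervals, on an axis that is logarithmic above 10. The Car1-led erythroid-like cluster, at 793 CPM for Mt1 and 814 CPM for Mt2, stands apart from the rest for both genes, and the Cxcl9-led, Camp-led, Fcna-led and F13a1-led clusters show Mt1 with little or no Mt2.

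Within the Car1-led cluster, metallothionein was found in the cells with erythroid transcripts. There, all 17 erythroid markers other than haemoglobin were detected, at 6058 CPM in sum, with Car1 at 1555, Car2 at 1917, Klf1 at 321 and Gata1 at 202 CPM, while Alas2 and Slc4a1, genes of later precursors, were at 25.9 and 31.1 CPM. A split of its cells by their erythroid marker UMIs, made after the values were seen, showed metallothionein in 30 of 33 cells with 10 or more such UMIs, in 11 of 29 with 1 to 9 and in 0 of 19 with none. The levels were 980 and 1053 CPM of Mt1 and Mt2 in the cells with 10 or more, and 459 and 306 CPM in those with 1 to 9. Depth differed in the same order, with medians of 3733, 761 and 694 UMIs. Cells without a marker UMI may belong to another type, and which one was not tested.

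Other markers were seen in the same cluster. Granulocyte markers had UMIs for 14 of 16 genes and summed to 1461 CPM, at 1721 CPM in the combination, 1431 CPM with anti-CD27, 820 CPM with anti-CD20 and 515 CPM in the isotype control. Macrophage or monocyte markers had UMIs for 12 of 19 genes (793 CPM) and megakaryocyte markers for 3 of 6 (25.9 CPM). The part of these transcripts in the metallothionein level was not tested.

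By haemoglobin content, metallothionein was highest in erythroid-like cells with little haemoglobin RNA. In the 73 erythroid-like cells with under 1% of UMIs from haemoglobin genes, Mt1 was at 835 CPM (708 to 978) and Mt2 at 846 CPM (718 to 990). In the 8 cells with 1% to 10%, 0 Mt1 UMIs and 5 Mt2 UMIs (347 CPM, 113 to 810) were found, and the floor of 3 counts for Mt1 was 208 CPM. In the 30 cells with 10% or more, Mt1 was at 47.9 CPM (15.6 to 112) and Mt2 at 115 CPM (59.5 to 201). Haemoglobin is itself part of the total in the last group.

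**Figure D3:**
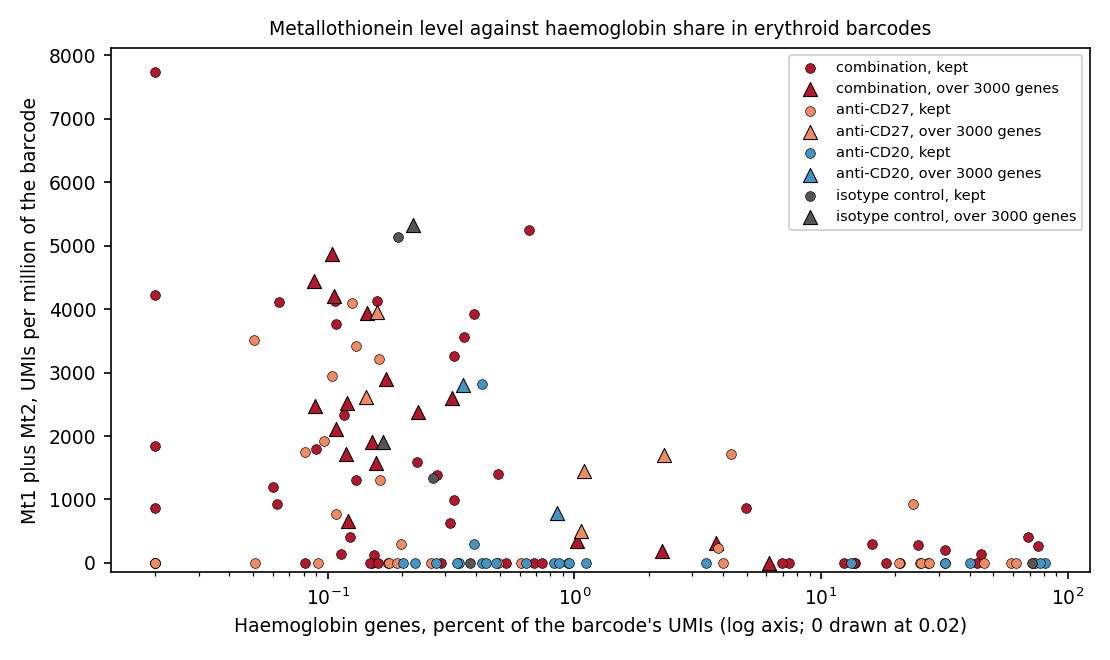
Mt1 plus Mt2 in CPM of each barcode against the percent of its UMIs from haemoglobin genes, on a logarithmic axis, for kept erythroid-like cells (circles) and barcodes over 3000 genes with at least 50 erythroid marker UMIs (triangles), coloured by library. Every barcode above 2000 CPM lies under 1% haemoglobin, and several barcodes of low haemoglobin share hold none.

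Within the erythroid-like class, levels were given by library. Mt1 had 93 UMIs in 53 combination cells (644 CPM, 520 to 789), 54 UMIs in 33 anti-CD27 cells (515 CPM, 387 to 672), 7 UMIs in 21 anti-CD20 cells (160 CPM, 64.2 to 329) and 4 UMIs in 4 isotype control cells (451 CPM, 123 to 1154). Mt2 had 91 UMIs (630 CPM, 507 to 774) in the combination, 68 UMIs (649 CPM, 504 to 823) with anti-CD27, 4 UMIs (91.2 CPM, 24.9 to 234) with anti-CD20 and 9 UMIs (1014 CPM, 464 to 1925) in the isotype control. The combination over anti-CD27 gave log2 ratios of 0.32 (-0.18 to 0.83) for Mt1 and -0.04 (-0.51 to 0.43) for Mt2, neither at 2-fold, beside 4.31% of genes higher in these cells and 2.52% lower. Against anti-CD20 the combination was higher, by 2.01 (0.91 to 3.37) for Mt1 and 2.79 (1.38 to 4.70) for Mt2, beside 6.35% of 3433 genes higher in these cells and 3.76% lower. The mix of cells differed, however. In the Car1-led cluster, erythroid markers other than haemoglobin were at 6485 CPM in the combination and 4030 CPM with anti-CD20. B markers were at 82.0 and 1355 CPM. Its cells with 10 or more erythroid marker UMIs numbered 17 and 4, with Mt1 at 1005 and 620 CPM and Mt2 at 964 and 354 CPM. The 4 anti-CD20 cells held 7 Mt1 and 4 Mt2 UMIs, of which 1 possible barcode copy held 6 and 4. Without it 1 Mt1 UMI and 0 Mt2 UMIs remained. The part of the mix of cells in the ratios was not tested.

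Single cells weighed on these values. In the anti-CD27 library 1 cell held 26 of 68 Mt2 UMIs with 10 Mt1 UMIs, and another held 13 of 54 Mt1 UMIs. In the anti-CD20 library 1 cell held 6 of 7 Mt1 and all 4 Mt2 UMIs, and this is the cell with a deeper near-copy. Without possible copies, 19 anti-CD20 erythroid-like cells held 1 Mt1 UMI and 0 Mt2 UMIs (floor 75.1 CPM), and the remaining 2 isotype control cells held none (floor 837 CPM).

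The share of erythroid-like cells differed between the libraries in the same order as the whole-library levels of Mt1, but not of Mt2. Mt2 was at 29.5 CPM in the isotype control and 11.7 CPM with anti-CD20. With no upper limit on genes, Mt1 left this order too. Mt1 was then at 322 CPM in the combination, 158 CPM with anti-CD27, 53.5 CPM with anti-CD20 and 213 CPM in the isotype control. Erythroid barcodes then made up 15.4%, 7.44%, 4.55% and 1.75% of the barcodes counted, with the libraries in the same order. Among kept cells, erythroid-like cells were 12.3% (9.33 to 15.7%) of combination cells and 6.64% (4.61 to 9.20%) of anti-CD27 cells. They were 4.19% (2.61 to 6.34%) of anti-CD20 cells and 1.18% (0.32 to 2.98%) of isotype control cells. Without possible barcode copies, 2 of 333 isotype control cells were erythroid-like. Leaving all erythroid-like cells out lowered Mt1 to 27.2 CPM in the combination, 32.3 CPM with anti-CD27, 19.0 CPM with anti-CD20 and 13.9 CPM in the isotype control. Mt2 then stood at 10.3, 8.70, 7.82 and 9.26 CPM in the same order. The log2 ratio of the combination over anti-CD20 became 0.52 (-0.48 to 1.53) for Mt1 and 0.41 (-1.25 to 2.10) for Mt2. These values rest on 21 and 17 Mt1 UMIs and on 8 and 7 Mt2 UMIs. Anti-CD27 over isotype control became 1.22 (-0.09 to 2.79) on 26 and 6 Mt1 UMIs. For Mt2 it was -0.09 (-2.07 to 2.13) on 7 and 4 UMIs. With so few UMIs the intervals are wide, and all include 0. The share of all genes passing the rule was not computed without erythroid-like cells.

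The upper limit of 3000 genes removed most metallothionein UMIs. Only 51 barcodes lay above it, 30 in the combination, 14 with anti-CD27, 5 with anti-CD20 and 2 in the isotype control, yet they held 547 of the 795 Mt1 UMIs in the table (68.8%) and 623 of the 844 Mt2 UMIs (73.8%). Their erythroid marker counts fell into separate sets, and a line drawn after they were seen, at 50 UMIs of the 17 markers, put 27 barcodes with 60 to 408 UMIs above it and 24 with at most 11 below.

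The 27 erythroid barcodes held 528 Mt1 UMIs (1141 CPM, 1046 to 1242) and 620 Mt2 UMIs (1340 CPM, 1236 to 1449). The other 24 held 19 Mt1 UMIs (61.5 CPM, 37.0 to 96.1) and 3 Mt2 UMIs (9.72 CPM, 2.004 to 28.4). By library, the erythroid barcodes stood at 1038 CPM of Mt1 and 1344 CPM of Mt2 in 18 combination barcodes, 1179 and 1247 CPM in 5 anti-CD27 barcodes, 832 and 832 CPM in 2 anti-CD20 barcodes, and 1956 and 1810 CPM in 2 isotype control barcodes. The 2 isotype control barcodes held 66 Mt1 and 73 Mt2 UMIs, and 28 and 14 UMIs. The 2 anti-CD20 barcodes held 11 and 4 UMIs, and 17 and 24 UMIs. Deep erythroid barcodes with metallothionein were thus found in each library, but with anti-CD20 and in the isotype control this rests on 2 barcodes each.

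Counted together with the kept erythroid-like cells and without possible copies, erythroid barcodes numbered 68 in the combination, 35 with anti-CD27, 21 with anti-CD20 and 4 in the isotype control. Mt1 was then at 892 CPM (806 to 984), 761.7 CPM (636 to 905), 394 CPM (264 to 566) and 1820 CPM (1471 to 2227) in the same order. The combination stayed above anti-CD20, by 1.18 (0.63 to 1.78) for Mt1 and 1.57 (1.02 to 2.17) for Mt2, with 28 of the 29 Mt1 UMIs and all 28 Mt2 UMIs of anti-CD20 in 2 deep barcodes. Anti-CD27 lay below the isotype control, at -1.26 (-1.65 to -0.86) for Mt1 and -0.92 (-1.31 to -0.52) for Mt2, a value that rests on the 2 deep isotype control barcodes.

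**Figure D4:**
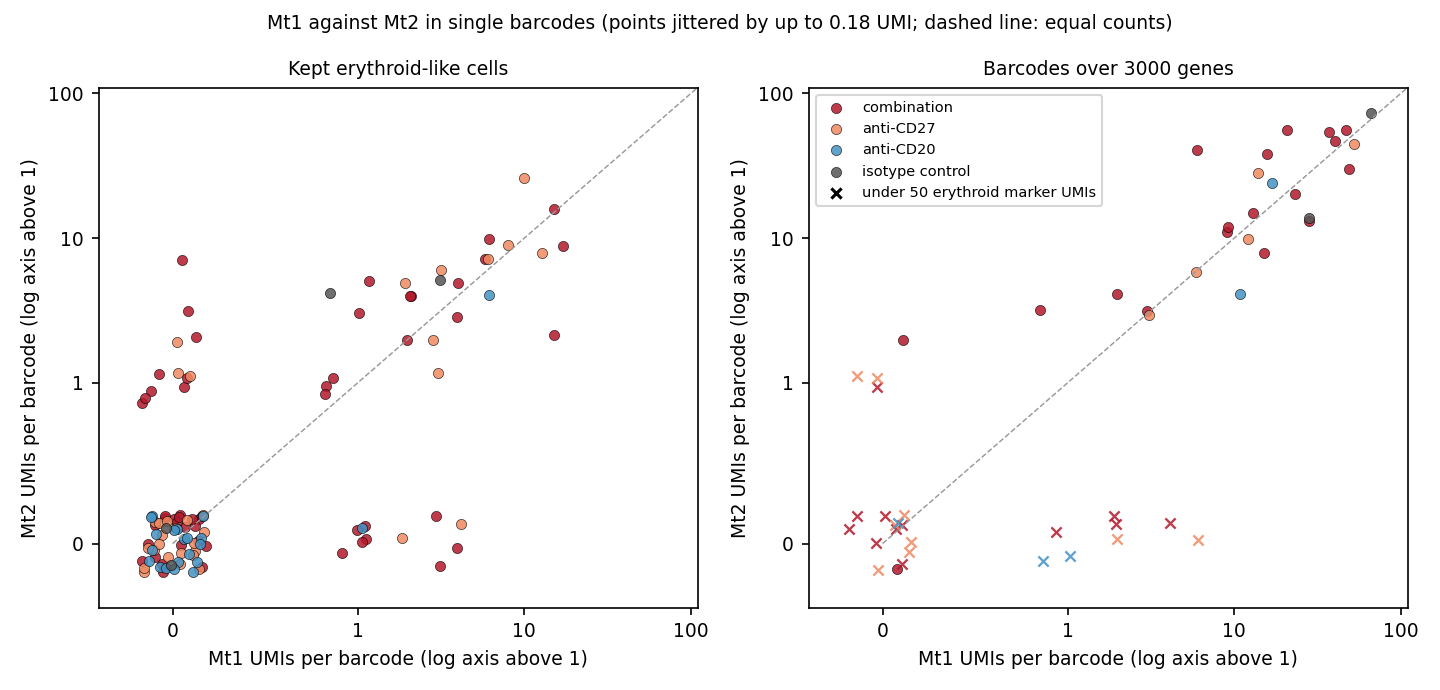
Mt1 against Mt2 UMIs in single barcodes, for the 111 kept erythroid-like cells (left) and the 51 barcodes over 3000 genes (right), coloured by library, on axes that are logarithmic above 1. Circles are erythroid barcodes and crosses are barcodes with under 50 erythroid marker UMIs, which hold up to 6 Mt1 UMIs and at most 1 Mt2 UMI, while circles run along the dashed line of equal counts.

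The balance of the genes differed between cell types. In erythroid-like cells Mt1 made up 47.9% (42.4 to 53.4%) of the 330 metallothionein UMIs. In the myeloid clusters, taken as granulocyte-like and macrophage or monocyte-like cells with the unnamed cluster led by Cxcl9, Mt1 made up 44 of 50 UMIs (88.0%, 75.7 to 95.5%). The intervals did not overlap. The grouping was made with the values known, and cells of 1 library are not independent.

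In myeloid cells Mt1 UMIs outnumbered Mt2 UMIs in each library, but on only 4 UMIs with anti-CD20 and 4 in the isotype control. In each of those libraries the interval of the Mt1 share, 39.8 to 100%, included an even split. Myeloid cells held 17 Mt1 and 4 Mt2 UMIs in the combination, 19 and 2 with anti-CD27, 4 and 0 with anti-CD20 and 4 and 0 in the isotype control. As a level this was 44.1 CPM of Mt1 in the combination, 84.4 CPM with anti-CD27, 71.8 CPM with anti-CD20 and 147 CPM in the isotype control, and the log2 ratios of the combination over anti-CD20, -0.70 (-2.32 to 1.33), and of anti-CD27 over isotype control, -0.80 (-2.39 to 1.21), both had intervals across 0. Myeloid cells were 36.6% of combination cells, 18.9% of anti-CD27 cells, 5.99% of anti-CD20 cells and 5.88% of isotype control cells.

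Among the myeloid clusters, the 80 Cxcl9-led cells had 17 Mt1 UMIs (92.3 CPM, 53.8 to 148) and 2 Mt2 UMIs. The 59 granulocyte-like cells led by Camp, Ngp and Ltf, granule genes of immature neutrophils, had 13 Mt1 and 2 Mt2 UMIs, whereas the 79 led by Stfa2l1 and Cxcr2, of more mature neutrophils, had 0 and 2. That cluster was shallower, at a median of 956 UMIs against 3077. The 84 macrophage or monocyte-like cells had 14 Mt1 UMIs in 11 cells and 0 Mt2 UMIs, with a floor of 14.7 CPM for Mt2.

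Lymphocytes held almost none. Mt1 and Mt2 had 4 and 5 UMIs in 474 B-like cells, 4 and 4 in 170 germinal center B-like cells, 2 and 3 in 435 T-like cells, 1 and 0 in 123 effector CD8 T-like cells and 0 and 0 in 46 NK-like cells. Mt1 was found in 0.84% of B-like and 0.46% of T-like cells, and the part of free RNA in these shares was not tested. The 1377 barcodes with under 300 genes, which were left out, held 20 Mt1 UMIs (27.2 CPM, 16.6 to 42.0) and 23 Mt2 UMIs (31.2 CPM, 19.8 to 46.9). By library these barcodes stood at 52.2 CPM of Mt1 and 62.6 CPM of Mt2 in the combination, 34.2 and 41.1 CPM with anti-CD27, 4.004 and 4.004 CPM with anti-CD20 and 26.9 and 26.9 CPM in the isotype control. No B-like, germinal center B-like, T-like, effector CD8 T-like or NK-like cell held more than 1 metallothionein UMI. Plasma-like cells had 7 Mt1 and 4 Mt2 UMIs in 27 cells, of which 1 anti-CD20 cell held 6 and 1.

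When every cell was thinned to 400 UMIs, 13 of 108 erythroid-like cells (12.04%) kept an Mt1 UMI and 15 (13.9%) an Mt2 UMI. This compared with 2 and 1 of 470 B-like cells, 2 and 1 of 429 T-like cells, 2 and 0 of 83 macrophage or monocyte-like cells and 1 and 1 of 138 granulocyte-like cells. Without thinning, 33.3% and 34.2% of the 111 erythroid-like cells held Mt1 and Mt2.

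The genes with the levels most like those of Mt1 and Mt2 were sought over all genes with enough counts. Over 20 combinations of library and class with at least 20 cells, which share libraries and of which 3 were erythroid-like, Mt1 was most like Mgst3 (Pearson r 0.90 on log2 CPM with a pseudocount of 10), a glutathione transferase, and Gpx1 (0.90), a glutathione peroxidase. Arrb1, Hebp1, Creg1, the mitochondrial transporter Abcb10, the blood group gene Rhd, Specc1, Ube2l6 and Prkar2b came next, down to 0.84. Mt2 was most like Klf1 (0.95), the erythroid transcription factor, followed by Smim1, Abcb4, Trim10, Clca1, Kel, Hemgn, Car1, Cldn13 and Tal1 (0.91). Mt1 and Mt2 had an r of 0.81 with each other, which placed Mt2 at rank 15 of the genes most like Mt1 and Mt1 at rank 44 of those most like Mt2.

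Some of these genes were also well measured outside the erythroid-like class, where Gpx1 stood at 889.9 CPM, Creg1 at 146 CPM and Ube2l6 at 51.6 CPM. Most of them had a higher level in the haemoglobin-rich cluster than in the Car1-led one, the opposite of Mt1 and Mt2. Gpx1 was at 1943 CPM in the Car1-led cluster and 7416 CPM in the haemoglobin-rich one, Mgst3 at 88.1 and 817 CPM, and Klf1 at 321 and 606 CPM. Car1, at 1555 and 441 CPM, and Clca1, at 72.6 and 45.9 CPM, were the exceptions among the 20 genes.

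Of the genes of zinc handling, 16 of 19 listed had at least 10 UMIs in the combination and anti-CD20 libraries, and 1 was at least 2-fold higher and 2 lower in the combination, at a median log2 ratio of -0.14 against -0.06 for all genes, of which 9.54% were higher and 8.55% lower. The higher one was Slc30a1, the zinc exporter of the cell surface and itself a target of MTF-1, with 21 UMIs in the combination and 7 with anti-CD20 (log2 ratio 1.62, 0.33 to 3.10). Of its 46 UMIs, 20 were in the Cxcl9-led cluster (109 CPM) and 0 in the Car1-led cluster, where Mt1 was highest. In the Car1-led cluster 5 UMIs of a gene amount to 25.9 CPM, so a count of 0 there leaves a low level possible. Slc30a5 was lower at -1.06 (-1.64 to -0.49) and Slc30a4 at -2.29 (-5.52 to -0.06). Slc30a9 and Slc39a1, the other abundant members, differed by 0.08 and -0.28. Mtf1, the sensor, had 88 UMIs in all, with 10 in erythroid-like cells (33.1 CPM).

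Of 7 measured genes of the oxidative stress response, 1 was at least 2-fold higher in the combination than with anti-CD20 and 0 were lower (all genes, 9.54% and 8.55%), at a median of 0.62 against -0.06. It was Gclm, a subunit of the enzyme that makes glutathione precursor, at 119 CPM in the combination and 47.9 CPM with anti-CD20 (log2 ratio 1.31, 0.80 to 1.85). Erythroid-like cells held 135 of its 248 UMIs (54.4%), at 352 CPM in the Car1-led and 615 CPM in the haemoglobin-rich cluster. Within erythroid-like cells 3 of 6 measured members were higher in the combination, Gclm (78 and 11 UMIs), Gclc (23 and 1) and Nfe2l2 (21 and 1), at a list median of 0.79 against 0.24 for all genes, of which 6.35% were higher and 3.76% lower. Hmox1, a heme-degrading enzyme, had 118 of its 199 UMIs in macrophage or monocyte-like cells and 1 in erythroid-like cells. The most abundant members, Txn1 and Prdx1, differed by 0.99 and 0.18 over all kept cells.

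Of 7 measured genes of IL-6 and STAT3 signaling, 3 were at least 2-fold higher in the combination than with anti-CD20 and 0 lower (all genes, 9.54% and 8.55%), at a median of 0.82 against -0.06. Socs3, a feedback inhibitor of cytokine signaling, was at 66.5 CPM in the combination and 11.7 CPM with anti-CD20 (log2 ratio 2.51, 1.57 to 3.58), Bcl3 differed by 1.11 (0.27 to 2.01) and the cytokine gene Osm by 1.77 (0.40 to 3.38). Between anti-CD27 and isotype control, Socs3 was higher by 1.42 (0.31 to 2.71) and Bcl3 by 1.34 (0.29 to 2.55), at a list median of 0.48 against -0.09 for all genes, of which 6.15% were higher and 6.42% lower. Of the 124 Socs3 UMIs, 46 were in T-like cells, 25 in the Cxcl9-led cluster, which also held 17 Mt1 UMIs, and 0 in the Car1-led cluster. A low level of Socs3 in the Car1-led cluster remains possible at this depth. Junb, Stat3 and Il6ra, the most abundant members, differed by 0.92, 0.88 and 0.67 between the combination and anti-CD20.

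Of 9 glucocorticoid-induced genes, all measured, 1 was higher in the combination than with anti-CD20 (Dusp1, 1.19, 0.20 to 2.26) and 1 lower (Ddit4, -1.05, -1.82 to -0.33), at a median of -0.23 against -0.06 for all genes, of which 9.54% were higher and 8.55% lower. Nr3c1, the glucocorticoid receptor, and Tsc22d3 differed by -0.24 and -0.29. In the Car1-led cluster 0 UMIs of Dusp1 or Ddit4 were found, which leaves a low level there possible. Between anti-CD27 and isotype control none of the 7 measured members passed the rule, beside 6.15% of genes higher and 6.42% lower.

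Of 7 measured genes of copper handling, 2 were higher in the combination than with anti-CD20 and 0 lower, at a median of 0.52 against -0.06 for all genes, of which 9.54% were higher and 8.55% lower. They were the importer Slc31a1 (1.17, 0.65 to 1.72) and the exporter Atp7a, with 13 UMIs in the combination and 2 with anti-CD20 (2.73, 0.59 to 5.92), and Atp7a also had 10 UMIs with anti-CD27 and 0 in the isotype control. Cox17, Sod1 and Atox1, the most abundant members, differed by 0.53, 0.34 and 0.999. Of 8 genes of iron storage and transport none passed the rule in either direction, beside the same shares of all genes, at a median of 0.37, and Fth1, Pcbp1 and Slc40a1 differed by 0.46, 0.08 and 0.40.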

How the data were processed

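The authors deposited raw UMI counts per gene and barcode, neither filtered nor scaled. By the methods and the submitters' processing notes, reads were trimmed, aligned to mm10 with STAR 2.5.0a and counted with Drop-seq tools. All 4 libraries were read by column prefix, with 0 sample columns unused. Barcodes with 300 to 3000 detected genes were kept, scaled to 10000, log-transformed and clustered (2000 variable genes, 30 components, 15 neighbours, Leiden resolution 1.0, leidenalg 0.10.2, scanpy 1.11.5). A cluster was named when at least 3 markers of 1 class stood among its top 30 genes, a rule set after clusters had been seen. Scrublet called 16 doublets (0.904%), removed only as an alternative. CPM used summed UMIs, and a count of 0 has a floor of 3 counts. List medians used a pseudocount of 10 CPM and genes with at least 10 UMIs. The ratio intervals were tried only on simulated Poisson counts, the model they assume, without differences between cells or libraries. Mt1, Mt2 and the lists were chosen with earlier results of these data known. Named genes were the 3 most abundant of each list, members past 2-fold with an interval without 1 in the combination over anti-CD20 or anti-CD27 over isotype control, and the 10 genes most like each member. Others are named after their values were seen. Alternatives were gene limits, doublet removal, cluster settings, thinning, TMM factors (edgeR 4.0.16), equal weight per cell, pseudocount, group size and UMI minimum, and, chosen after seeing the data, removal of possible barcode copies, totals without haemoglobin and mitochondrial genes, erythroid-like cells left out, and the cell with the most UMIs left out.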

Additional observations from a re-analysis of the deposited data

How the results depend on the processing

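No paired analysis was possible because each treatment is 1 library. The combination over anti-CD20 ratios of all kept cells kept their direction under all 9 alternatives, between 0.52 and 2.59 for Mt1 and between 0.41 and 3.86 for Mt2, with the lowest values, 0.52 and 0.41, when erythroid-like cells were left out. Leaving these cells out also turned anti-CD27 over isotype control for Mt2 (-0.0896) and combination over anti-CD27 for Mt1 (-0.25). With no upper limit on genes, anti-CD27 over isotype control reversed (Mt1 -0.43, Mt2 -0.42), anti-CD20 over isotype control for Mt1 was -1.99, and combination over anti-CD27 was 1.02 for Mt1 and 1.29 for Mt2. In the erythroid-like class of that setting, clustered anew, whose deep barcodes were led by Igfbp7, Car1 and Sparc (Igfbp7 and Sparc also led an unnamed cluster of kept cells), the combination over anti-CD20 was 0.75 for Mt1 and 1.17 for Mt2. With equal weight per cell, combination over anti-CD27 was 0.96 for Mt1 and 1.12 for Mt2 over all kept cells, and 0.99 for Mt1 in erythroid-like cells. Without possible barcode copies, Mt2 gave 3.01 for anti-CD27 over isotype control, and Mt1 4.48 for the combination over anti-CD20 in erythroid-like cells, where leaving out the cell with the most UMIs gave 4.47. Without called doublets the Car1-led cluster lost its name, so that erythroid-like cells meant the haemoglobin-rich ones with 2.20% of Mt1 and 7.61% of Mt2 UMIs, at -0.70 for Mt1 and 0.47 for Mt2 in the combination over anti-CD27; the combination over anti-CD20 could not be computed, nor could it for Mt2 where anti-CD20 was left with 0 UMIs. Among the 10 genes most like Mt1, 4 to 6 were shared under other settings, and 7 of those most like Mt2. The kept isotype control cells held 10 Mt1 and 13 Mt2 UMIs, and the gene limit removes 2 deep barcodes from that library. Ratios with that library therefore rest on few barcodes. With 1 library per treatment, differences between mice cannot be told apart from treatment.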
